A study of Homo sapiens with 4 samples.

Results

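The histone cluster genes encode the core histones H2A, H2B, H3 and H4 and the linker histone H1, and they lie together on chromosomes 6 and 1, with 1 gene on chromosome 12. They were taken here by name alone, as every row of the expression table whose symbol begins with HIST1H, HIST2H, HIST3H or HIST4H and which lies on a main chromosome. Of the 24934 rows of the table, 74 were chosen, with 73 different symbols, because HIST2H2BF stands on 2 rows. There were 6 rows for H1, 18 for H2A, 21 for H2B, 14 for H3 and 15 for H4. No measured value entered the choice.

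Histone cluster genes are expressed mainly in S phase, when new DNA has to be packed into chromatin. Most of their mRNAs end in a conserved stem-loop instead of a poly(A) tail. The stem-loop is bound by SLBP, and the transcript is cut just downstream of it by a machinery that includes the U7 snRNP. A few of these genes also make longer mRNAs with a poly(A) tail, above all in cells that divide little or differentiate. A library made from poly(A) RNA therefore holds these tailed transcripts and whatever tailless mRNA passed the selection, and its values do not give the total histone mRNA of the cells.

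HEK-293 is an established human embryonic kidney cell line. The cells were transfected for 48 h with siRNA at 10 nM, and 1 mRNA library was sequenced for each siRNA. The ZSCAN5A gene was targeted by si4 and by si5, the ZSCAN5B gene by si1, and the control cells received a scrambled siRNA. The groups carry no other allele or agent. As each group is 1 library, differences have no check between replicates, and p-values across genes are not given.

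ZSCAN5A stood at 2.42 FPKM in the control, at 0.730 and 0.713 in the si4 and si5 libraries and at 2.53 in the si1 library. ZSCAN5B stood at 0.0903 FPKM in the control, at 0.0331 and 0.0663 in the si4 and si5 libraries and at 0.0948 in the si1 library, so that si4 held the lowest value of this gene too. These levels are very low and give a weak check of the label. Since its target was not lower here, the si1 sample is named the library labelled ZSCAN5B knockdown, and measurements of this knockdown by other assays are not used here. All 6 markers of HEK-293 checked (VIM, KRT8, KRT18, NEFL, NEFM and PAX2) were above 0.5 FPKM in every library. Those of blood, endothelium, liver and muscle cells (PTPRC, PECAM1, ALB and MYH7) were at most 0.0335 FPKM. Steps between low FPKM values gave a relative depth of 1.09 for si4, 1.54 for si5 and 1.02 for si1, with the control at 1. Judged from the lengths of the short histone rows, the control held about 58500000 fragments, and the si4, si5 and si1 libraries about 63900000, 90400000 and 59500000.

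The stem-loop was read from the GRCh37 genome, the build of the table. The pattern searched was GG, 2 free bases, CTT, a free base, T, a free base, AG, 2 free bases and CC, on both strands and up to 300 bases beyond each row, and the first match along the gene's strand was kept, unless it was the one at which another histone row ended. All 74 rows had a match. On the 66 rows whose strand the GENCODE annotation gives, only matches on that strand were kept, so that strand was not a check. In a window from 100 bases before to 30 bases after the 3′ end, 66 of 74 rows (89.2%) held the pattern, against 0 of 3904 other genes on the same chromosomes with an annotated strand. The sequences of the 3 most abundant genes, of the most abundant H3 and H4 genes, and of HIST2H2BE, which stood lowest with si4 relative to the control among genes known to make tailed mRNA, are printed with the 16 bases of the stem-loop in capitals.
HIST1H2BK: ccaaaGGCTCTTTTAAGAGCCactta
HIST3H2A: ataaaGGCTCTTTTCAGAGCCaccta
HIST1H1C: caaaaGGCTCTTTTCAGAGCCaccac
HIST1H3H: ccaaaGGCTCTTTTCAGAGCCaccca
HIST2H4A: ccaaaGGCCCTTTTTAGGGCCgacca
HIST2H2BE: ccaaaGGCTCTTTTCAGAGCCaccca
These stretches lie at chr6:27114140-27114165 (minus strand), chr1:228645065-228645090 (minus), chr6:26055967-26055992 (minus), chr6:27778289-27778314 (plus), chr1:149832330-149832355 (minus) and chr1:149857733-149857758 (minus).

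The stem-loop split by histone type. All 15 H4 rows had a stem of GGCCC and GGGCC, most often as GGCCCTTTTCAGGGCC, which stood in 10 of them. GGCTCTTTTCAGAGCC was the most frequent form in the other types, with 4 of 6 H1 rows, 13 of 18 H2A rows, 14 of 21 H2B rows and 11 of 14 H3 rows.

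Most rows of the table stopped at this element. Of the 74 rows, 65 ended no more than 20 bases after the stem-loop, 1 pseudogene row ended before it, and 8 ran further. The row of HIST1H2BK ran on for 8073 bases, that of HIST1H2BD for 12746 bases and that of HIST2H2BE for 1728 bases. These are spans in the genome and not lengths of mRNA, and GENCODE places some ends otherwise. There HIST1H2BK ends next to its stem-loop, at 27114140, and HIST3H2A runs on past it to 228622478. Of the 8 longer rows 7 reached 1 FPKM in some library, and of the other 66 rows 29 did. AATAAA, the usual signal for addition of a poly(A) tail, lay within 1000 bases after the stem-loop of 33 genes (44.6%), and within 1000 bases after the end of 43.9% of 3904 other rows. It began no more than 20 bases after the stem-loop in 4 genes, namely HIST1H1C, HIST1H2BD, HIST2H2AA3 and HIST2H2AA4, which were singled out after this match was seen, and in the same stretch after 0.922% of the other rows. Of the 33 genes with AATAAA 16 reached 1 FPKM, as did 20 of the 41 without it.

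Transcripts of 3 genes made up most of the histone signal in all 4 libraries. These were HIST1H2BK, HIST3H2A and HIST1H1C, and together they held between 59.9% and 62.8% of the summed FPKM of the 74 rows. Of the 74 rows, 36 reached 1 FPKM in some library, 9 reached 5 FPKM and 5 reached 10 FPKM. The median row stood at 0.832 FPKM in the control. FPKM is a value per length of transcript and can be compared between genes, as far as the length the authors' annotation gives is the length that was transcribed.

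HIST1H2BK encodes an H2B protein and is among the genes known to make a tailed mRNA as well. It had 80.7 FPKM in the control and 58.0, 104.0 and 70.1 with si4, si5 and si1, the highest of all histone cluster genes in each library. The si4 value was the lowest and the si5 value the highest of the 4, a difference of 0.84 on the log2 scale between siRNAs against the same gene. The row covers 8566 bases at chr6:27106072-27114637 on the minus strand, and HIST1H4I lies inside it on the plus strand. Whether the counting used strand is not stated, so reads of these 2 genes may have been shared between them.

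HIST3H2A, an H2A gene of the small cluster on chromosome 1, had 48.6 FPKM in the control and 44.05, 52.0 and 51.9 with si4, si5 and si1. HIST1H1C, a linker histone gene, had 44.6, 38.9, 47.3 and 43.8 FPKM in the same order. Both genes were lowest with si4, and neither differed by more than 1.5-fold between any 2 libraries. The other 5 H1 rows were far below HIST1H1C, and the 6 H1 rows together summed to 46.1 FPKM in the control.

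HIST2H2AA3 and HIST2H2AA4 are near-identical H2A copies on chromosome 1, and the table gave both the same values, 10.3 FPKM with si4, 16.6 with si5 and 15.2 with si1, against 15.7 in the control. The 3 latter libraries lay close together, and si4 lay apart below them. HIST2H4A and HIST2H4B, copies of an H4 gene, had 4.66, 6.59, 5.72 and 5.45 FPKM each. How the reads fell between such copies cannot be told, and only their sum is certain.

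**Figure D1:**
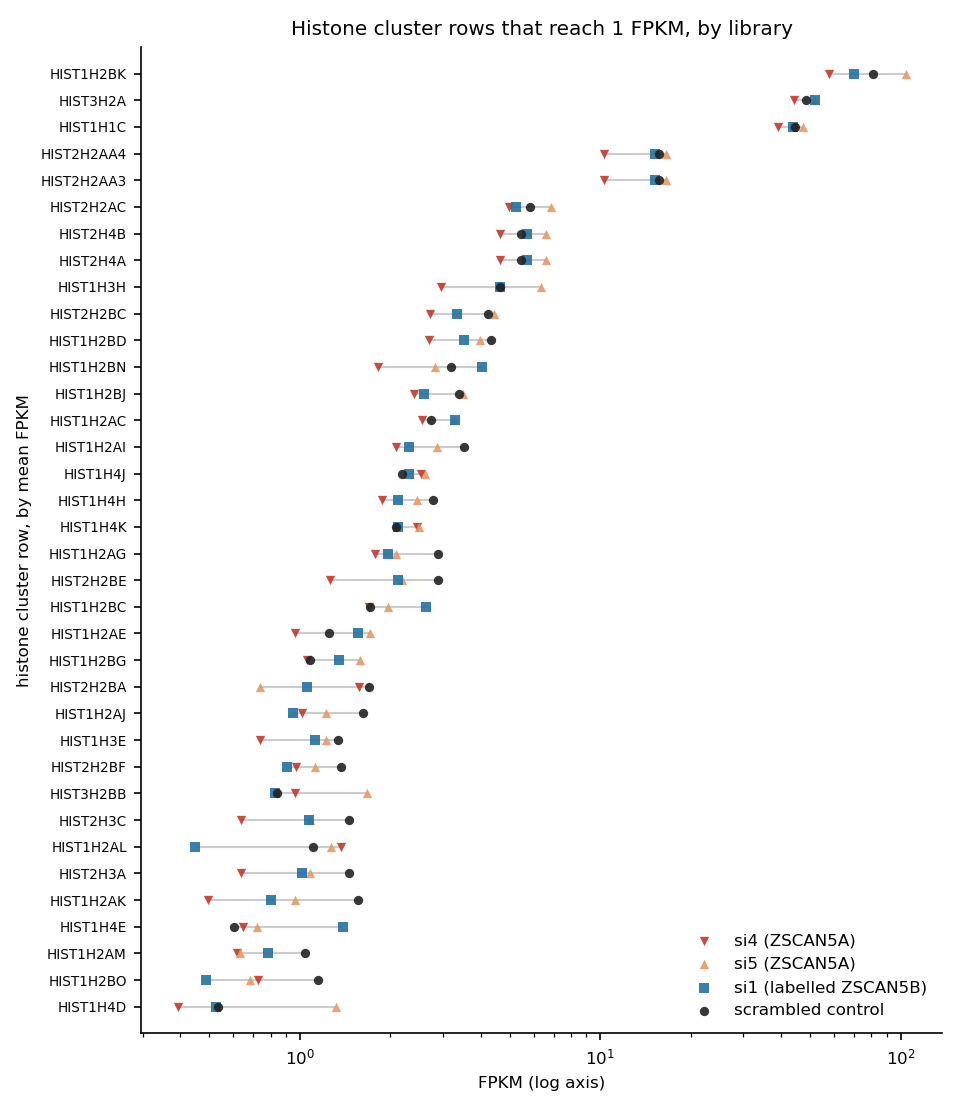
FPKM (log axis) of the 36 histone cluster rows that reached 1 FPKM, with 1 marker for each of the 4 libraries and a grey line over their range. The si4 marker is the lowest of the 4 in 27 of the 36 rows.

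Outside these genes the levels were low. With these genes included, H2A rows summed to 102 FPKM in the control, of which HIST3H2A gave 48.6 and HIST2H2AA3 and HIST2H2AA4 15.7 each. H2B rows summed to 109.7 FPKM, of which HIST1H2BK gave 80.7. H4 rows, with HIST2H4A and HIST2H4B included, summed to 20.5 and H3 rows to 11.9. HIST1H3H, the most abundant H3 gene, had 2.95 FPKM with si4, 6.34 with si5 and 4.63 with si1, against 4.64 in the control. Of the 67 rows under 1000 bases, 25 rested on at most 3 fragments in the control and 18 on at most 3 in every library. The 3 rows at 0 in every library were HIST1H2APS1, a pseudogene, and HIST1H4G and HIST1H4L. HIST1H4C, singled out after its values were seen, rested on 11, 12, 6 and 3 fragments with si4, si5, si1 and in the control.

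The first comparison asked how these genes stood after si4 and si5, taken as a group as in the study's methods, against the scrambled control. Of 35 rows that met the expression limit of 1 FPKM, 2 were higher and 6 lower by over 1.5-fold. Over all 12993 rows tested, 0.677% were higher and 3.11% lower by that much. The median log2 ratio of the histone rows was -0.22, against -0.02 over all rows. The libraries behind this mean differed from each other, and each is given on its own.

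With si4 alone, 30 of 33 rows were lower than in the control and 3 higher, where 52.1% of all 12928 rows were lower. Of the 33 rows, 16 were lower by over 1.5-fold and 0 higher, where 5.21% and 1.15% of all rows were. Their median log2 ratio was -0.56 (quartiles -0.70 and -0.20), against -0.01 over all rows. A row that reached 1 FPKM in the control but not with si4 had to come out lower, also among all rows. Some of the 16 were such rows, among them HIST1H2AK, HIST1H2AM, HIST1H2BO, HIST2H3A and HIST2H3C. With si5 alone, 20 of 35 rows were higher and 15 lower, where 45.0% of all 12922 rows were higher. By over 1.5-fold 2 rows were higher and 4 lower, and 0.588% and 2.95% of all rows. The median log2 ratio was 0.08, against -0.03 over all rows. ZSCAN5A itself was at 30.2% of the control with si4 and at 29.5% with si5.

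Set directly against each other, without the control library, si5 exceeded si4 in 30 of 32 rows, by over 1.5-fold in 14. Rows that reached 1 FPKM with si5 but not with si4, such as HIST2H3A and HIST2H3C, had to come out higher. Over all 12800 rows tested, 45.4% were higher with si5, and 1.56% by over 1.5-fold. The median log2 ratio of si5 to si4 was 0.52 among the histone rows, with quartiles of 0.26 and 0.73, and -0.02 over all rows. Only 1 row was lower with si5 by over 1.5-fold, against 0.969% of all rows. This was HIST2H2BA, a pseudogene by its current symbol, H2BP1. It had 1.57 FPKM with si4 and 0.738 with si5, against 1.06 with si1 and 1.70 in the control. The si4 library was the lowest of the 4 in 27 of the 36 rows that reached 1 FPKM (75.0%) and in 25.8% of all 13078 such rows. The si5 library was the lowest in 1 row, si1 in 5 and the control in 3.

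Other short rows were not lower with si4. Rows of 300 to 1000 bases outside the histone clusters, a set added after the data were seen, had a median log2 ratio of 0.12 with si4 over 61 rows, of 0.15 with si5 over 62 rows and of 0.14 with si1 over 60 rows. In these bulk libraries, fewer cells in S phase and less histone mRNA in each such cell cannot be told apart. Neither can be told from a difference in the share of tailed transcripts or in the tailless mRNA that passed the poly(A) selection. Variation between libraries cannot be set apart either, since there were no replicates. Whether the cells held less histone mRNA in total was not tested.

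**Figure D2:**
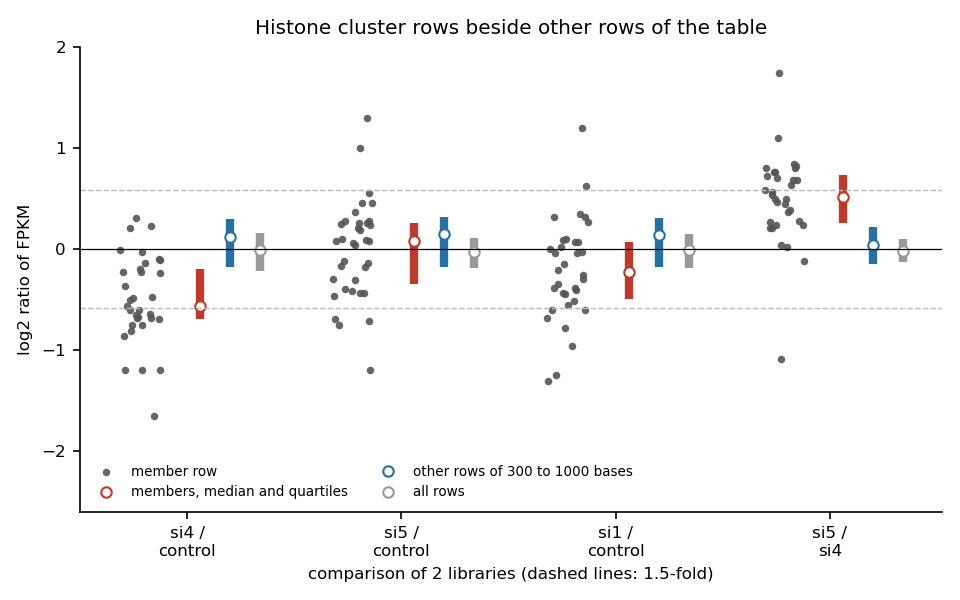
Log2 ratios of FPKM between 2 libraries, with 1 grey point for each histone row that met the expression limit, and bars from the first to the third quartile with the median as an open circle for these rows, for other rows of 300 to 1000 bases and for all rows. The histone median is -0.56 for si4 against control and 0.08 for si5 against control.

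In the library labelled ZSCAN5B knockdown, 11 of 34 rows lay above the control and 23 below it, and 2 were higher and 7 lower by over 1.5-fold. Over all 12921 rows tested, 51.5% were lower, 0.844% higher by over 1.5-fold and 3.17% lower by over 1.5-fold. The median log2 ratio was -0.23, against -0.01 over all rows. The median depended on weakly expressed rows and was -0.03 over the 8 rows that reached 5 FPKM. All comparisons with the control share 1 control library, so that any error in it enters each of them.

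The FPKM values of rows under 1000 bases could be turned back into fragments, because the values of 1 row in the 4 libraries stood in whole-number proportions. Of 174 values between 1 and 40 fragments, 153 (87.9%) came out within 0.05 of a whole number. Most of the others were part fragments, in 10 rows. Among these were HIST2H3A and HIST2H3C, which share reads, and HIST1 rows such as HIST1H2AJ and HIST1H2BO. The curve of fragments by row length was fitted on rows of this same set, so that the 87.9% is not an independent check. Ratios of fragments below are scaled by library depth and have exact Clopper-Pearson 95% intervals. These intervals cover counting error only, and they compare libraries, not conditions.

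The 67 rows under 1000 bases held 3463 fragments with si4, 6322 with si5 and 3843 with si1, against 3864 in the control. At the depth of the control this was 3172 fragments with si4 (95% Poisson interval 3067 to 3279), 4093 with si5 (3993 to 4195) and 3781 with si1 (3663 to 3903), against 3864 in the control (3743 to 3988). The si4 interval lay below the other 3, those of si1 and the control overlapped, and that of si5 lay just above both. The ratio to the control was 0.821 with si4 (0.784 to 0.860), 1.06 with si5 (1.02 to 1.10) and 0.979 with si1 (0.936 to 1.02).

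HIST1H1C and HIST3H2A supplied 2187 of these fragments in the control, and the other 65 rows 1677. Without them the ratio to the control was 0.736 with si4 (0.684 to 0.791), 1.05 with si5 (0.990 to 1.12) and 0.931 with si1 (0.869 to 0.998). For HIST1H1C and HIST3H2A together it was 0.886 with si4 (0.834 to 0.941). These 2 intervals do not overlap. HIST1H2BK, the most abundant of all and too long to enter these sums, had a log2 ratio of -0.48 with si4. The rows under 1 FPKM in every library had a fragment ratio of 1.07 (0.845 to 1.34). That set leaves out rows that reached 1 FPKM only in the control, which favours a higher ratio. Whether the ratios followed the level of the genes was not tested.

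H2A, H2B and H3 were lower with si4 beyond counting error, and H4 was not. The 17 H2A rows without HIST3H2A were at 0.701 of the control with si4 (0.635 to 0.773), the 15 short H2B rows at 0.693 (0.579 to 0.830) and the 13 short H3 rows at 0.641 (0.507 to 0.807). Most fragments of these 17 H2A rows came from HIST2H2AA3 and HIST2H2AA4, which share reads. These copies held about 299 each of the 945 in the control, and each had a ratio of 0.659 with si4. The 15 H4 rows were at 0.999 of the control with si4 (0.825 to 1.21) and at 1.22 with si5 (1.03 to 1.45). With si4 the H4 interval lay above those of H3 and of H2A without HIST3H2A and overlapped that of H2B. Over all 18 H2A rows the ratio with si4 was 0.796 (0.743 to 0.853), which overlaps the H4 interval. From si4 to si5 the ratio was 1.48 for H2A without HIST3H2A (1.35 to 1.61), 1.49 for H2B (1.27 to 1.76), 1.58 for H3 (1.28 to 1.97) and 1.22 for H4 (1.04 to 1.44). The 5 H1 rows other than HIST1H1C held 50 fragments in the control, too few to show a difference of this size, with a ratio of 0.898 with si4 (0.593 to 1.36). The 36 rows under 1 FPKM in every library held 164 fragments with si4, 212 with si5 and 127 with si1, against 141 in the control. Their ratio to the control was 1.07 with si4 (0.845 to 1.34).

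**Figure D3:**
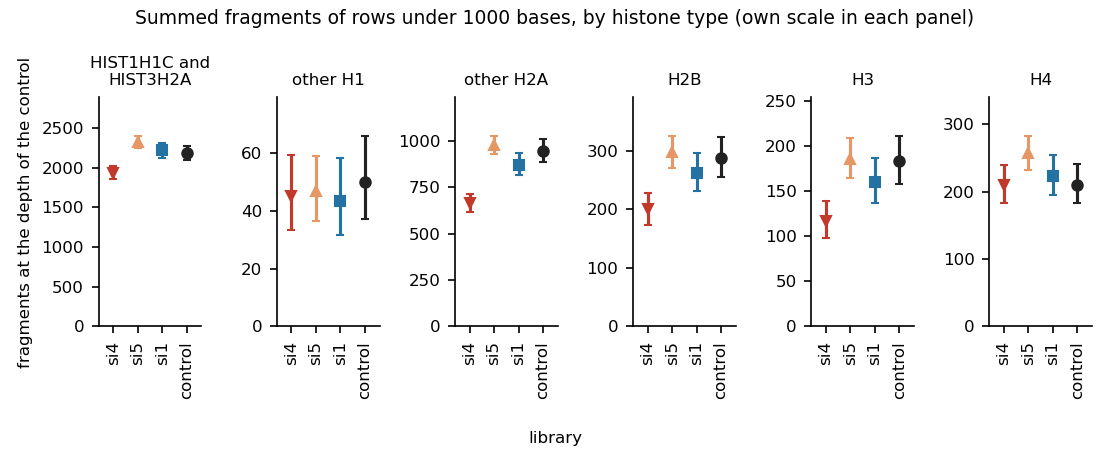
Summed fragments, scaled to the depth of the control, of the histone rows under 1000 bases in each of the 4 libraries, in 6 groups by histone type, each panel with its own scale from 0. Bars are 95% Poisson intervals and cover counting error only. In H2A, H2B and H3 the si4 value lies below the other 3, and in H4 the si4 and control values are 209.8 and 210.

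Among single genes with more than 3 fragments in the control, the interval of the si4 ratio lay below 1 in 12 of 42 rows and above 1 in 0. For si5 it lay above 1 in 2 rows and below 1 in 0, and for si1 in neither direction in any row. These counts were made for histone rows only, so that no share over all rows can be set beside them. The 12 rows are not 12 separate results, since HIST2H2AA3 and HIST2H2AA4 share their reads, as do HIST2H3A and HIST2H3C. HIST2H2AA3 held about 215, 489, 295.5 and 299 fragments with si4, si5, si1 and in the control, a ratio of 0.659 with si4 (0.550 to 0.787). HIST1H3H held 50, 152, 73 and 72 fragments, a ratio of 0.636 with si4 (0.434 to 0.925) and of 1.37 with si5 (1.03 to 1.84). For this gene si4 lay below and si5 above the control, and si5 exceeded si4 by 2.15 times (1.55 to 3.02).

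HIST2H2BE and HIST1H2BD encode H2B proteins from genes known for tailed mRNA. HIST2H2BE had 2.89 FPKM in the control and 1.26, 2.198 and 2.12 with si4, si5 and si1. All 3 siRNA libraries were below the control, and si4 lay furthest below, with a log2 ratio of -1.20. HIST1H2BD had 4.32, 2.70, 4.00 and 3.52 FPKM in the same order, with a log2 ratio of -0.68 with si4. HIST1H2AC, the H2A gene of this kind, had 2.73, 2.55, 3.27 and 3.28 FPKM, and the 4 libraries differed by less than 1.5-fold. Of the 5 genes named for tailed mRNA (with HIST1H1C and HIST1H2BK), all 5 were lower with si4 than in the control and 2 by over 1.5-fold. With si5, 3 were higher and 2 lower.

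The genes that differed from the control by over 1.5-fold in the mean of si4 and si5 were few and weak. HIST1H2AK, an H2A gene, had 0.497 FPKM with si4, 0.965 with si5 and 0.8003 with si1, against 1.56 in the control, from 8, 22, 12 and 23 fragments. It was lower than the control in all 3 siRNA libraries, and the interval of its ratio excluded 1 only with si4, at 0.319 (0.123 to 0.738). HIST2H3A and HIST2H3C, H3 copies that share reads, had the same 0.637, 1.08 and 1.46 FPKM with si4, si5 and in the control, and 1.02 and 1.08 with si1. HIST1H2AM had 0.617, 0.634, 0.783 and 1.04 FPKM, from 11, 16, 13 and 17 fragments. HIST1H2BO had 0.725, 0.683, 0.487 and 1.15 FPKM. In HIST1H2AM and HIST1H2BO both siRNAs against ZSCAN5A gave nearly the same value, unlike in most of the other genes. HIST1H2AK, HIST1H2AM and HIST1H2BO reached 1 FPKM only in the control, so that they could only come out lower here. The 2 higher genes each owed this to si5, the only library in which they reached 1 FPKM. HIST3H2BB had 0.962, 1.68, 0.827 and 0.840 FPKM, from 15, 37, 12 and 12 fragments. HIST1H4D had 0.393, 1.32, 0.527 and 0.536 FPKM, from 4, 19, 5 and 5 fragments.

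In the library labelled ZSCAN5B knockdown, the 2 higher genes were HIST1H4E and HIST1H2BC. HIST1H4E stood at 0.606 FPKM in the control and 1.39 in the si1 library, from 6 and 14 fragments. It reached 1 FPKM only in the si1 library and so had to come out higher. The si4 and si5 values were 0.647 and 0.719. HIST1H2BC stood at 1.71 and 2.63 FPKM, from 23 and 36 fragments. The 7 lower rows were HIST1H2AL, HIST1H2BO, HIST1H2AK, HIST1H2AJ, HIST2H2BA (a pseudogene), HIST1H2AI and the shorter row of HIST2H2BF. Of these, only HIST2H2BA and HIST1H2AI reached 1 FPKM with si1 too. The others reached it in the control but not with si1 and had to come out lower. HIST1H2AL stood at 1.11 and 0.449 FPKM, from 17 and 7 fragments, while si4 and si5 gave 1.37 and 1.27. It was the only one of the 7 that was higher with both si4 and si5 than in the control. HIST1H2AI stood at 3.53 and 2.32 FPKM, while si4 and si5 gave 2.098 and 2.86.

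The clusters were also compared by position. The 56 HIST1 rows on chromosome 6 fall into 3 blocks parted by gaps of over 0.5 megabases, with 35 rows from 25726291 to 26285727, 5 rows from 27100095 to 27115346 and 16 rows from 27775257 to 27861669. In the last block, fragments were at 0.675 of the control with si4 (0.572 to 0.796), 0.956 with si5 (0.833 to 1.10) and 0.830 with si1 (0.708 to 0.973). In the middle block, from 4 short rows, they were at 0.776 with si4 (0.583 to 1.03), 0.945 with si5 (0.738 to 1.21) and 0.709 with si1 (0.525 to 0.954), the lowest si1 ratio of the 3 blocks. In the first block without HIST1H1C they were at 0.942 with si4 (0.788 to 1.13), 1.14 with si5 (0.969 to 1.33) and 1.10 with si1 (0.926 to 1.31). In the last block 7 of 10 rows tested were lower by over 1.5-fold with si4, 3 of 10 with si5 and 5 of 10 with si1. In the first block these counts were 2 of 8, 0 of 9 and 0 of 9. Over all rows tested, 5.21%, 2.95% and 3.17% were lower by that much. In the last block, HIST1H2AK, HIST1H2AM and HIST1H2BO reached 1 FPKM only in the control and had to come out lower. They were all 3 of the rows counted with si5. HIST1H2AL and HIST1H2AJ reached 1 FPKM in the control but not with si1. Of the 5 rows counted with si1, only HIST1H2AI could have differed either way. The HIST2 cluster on chromosome 1 was at 0.688 with si4 (0.624 to 0.759), 1.07 with si5 (0.983 to 1.16) and 0.945 with si1 (0.862 to 1.04). Of its 954 fragments in the control, HIST2H2AA3 and HIST2H2AA4 held about 299 each. The si4 intervals of the first and the last block overlap slightly, as do the si1 intervals. The split into blocks was chosen after the values were seen, and the blocks also differ in their shares of H2A, H2B and H4 genes, whose part in this was not tested.

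Many H2A and H2B genes stand head to head and are transcribed away from a shared interval, which allows both to be served by the same stretch of promoter. With a limit of 400 bases between the starts, 14 pairs of rows were found, and 11 of the H2A and H2B pairs had a gene that reached 1 FPKM. The genes of such a pair could differ greatly in level. HIST3H2A had 48.6 FPKM in the control and its partner HIST3H2BB 0.840, a ratio of 57.8, and HIST1H2BK had 80.7 FPKM and its partner HIST1H2AH 0.222, which rested on 3 fragments. HIST1H2AG and HIST1H2BJ had 2.89 and 3.38 FPKM, and HIST1H2AM and HIST1H2BO had 1.04 and 1.15, so that other pairs stood close together. In HIST1H2AJ and HIST1H2BM the H2A gene had 1.63 FPKM and the H2B gene 0.0718, from 22 fragments and 1.

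The interval between the starts of HIST3H2A and HIST3H2BB is shown because these partners were the most unequal of those with over 3 fragments on both sides in the control. It holds 247 bases at chr1:228645561-228645807 of GRCh37, with 47.4% G and C, printed on the plus strand, so that HIST3H2A begins to the left of it and HIST3H2BB to the right.
HIST3H2A to HIST3H2BB: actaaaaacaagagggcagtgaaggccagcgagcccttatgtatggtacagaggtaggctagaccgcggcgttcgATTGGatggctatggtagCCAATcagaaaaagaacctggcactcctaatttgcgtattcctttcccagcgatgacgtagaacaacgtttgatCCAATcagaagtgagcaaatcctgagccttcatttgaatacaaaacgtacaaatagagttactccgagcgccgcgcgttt
The capitals mark CCAAT, the letters of the box bound by NF-Y, on either strand. There were 3 matches, at position 76 on the minus strand and at positions 94 and 168 on the plus strand, counted from the left end. TATAAA, the letters of the common TATA box, had no match on either strand.

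In the RefSeq promoters (GRCh38.p14, 250 bases before to 50 bases after the start), 61 of the 73 histone symbols were found, with 65 promoters. CCAAT stood on either strand in 84.6% of these and in 34.6% of all 35116 promoters. TATAAA stood in 67.7% of these and in 11.5% of all promoters. A match describes the letters in the window and is not evidence that a factor binds there.

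**Figure D4:**
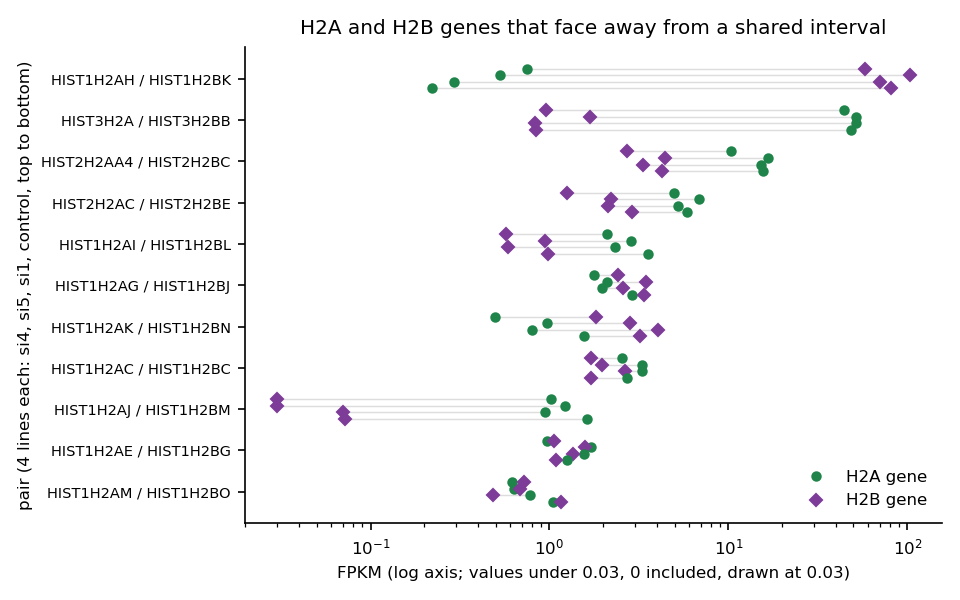
FPKM (log axis) of the H2A gene (circle) and the H2B gene (diamond) of 11 head-to-head pairs, with 4 lines for each pair in the order si4, si5, si1 and control. HIST1H2BK and HIST3H2A stand far from their partners, and HIST1H2AM and HIST1H2BO lie close together.

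Histone variants are encoded outside the clusters, and most of their genes make tailed mRNA that is not tied to S phase. H2AFX, which also makes a stem-loop mRNA, and CENPA, which is expressed late in the cell cycle, are exceptions on the list used. Of 12 such variants, all 12 met the expression limit, and with si4 the median log2 ratio was -0.09, with 5 higher and 7 lower than in the control. From si4 to si5 it was 0.10, with 11 of 12 higher and 0 by over 1.5-fold. H2AFZ, which encodes the variant H2A.Z, had 817 FPKM with si4, 895 with si5 and 908 with si1, against 787 in the control. H3F3B, a gene for H3.3, had 206, 278, 240 and 257 FPKM, and H2AFY, the gene for macroH2A, had 140.3, 147, 161 and 148. H1F0, a linker histone of cells that divide little, was the only 1 past 1.5-fold with si4 or si1, with 43.8 FPKM with si4 and 45.6 with si1 against 69.0 in the control, and with 60.3 with si5. H2AFZ thus stood about an order of magnitude above HIST1H2BK, on the same scale per length.

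Genes that act on histone mRNA differed little. Of 13 genes for histone gene transcription and 3′ end processing, 0 passed 1.5-fold in the mean of si4 and si5 or with si1, and the medians were 0.03 and 0.04 on the log2 scale. SLBP, which binds the stem-loop, had 68.1 FPKM with si4, 60.1 with si5 and 56.5 with si1, against 59.5 in the control. The other abundant ones were CPSF3, the nuclease that cuts the transcript, with 53.9, 55.4, 58.0 and 48.1 FPKM, and LSM10, a U7 snRNP subunit, with 46.7, 45.1, 47.9 and 36.9. Of 13 histone chaperones, all with at least 1 row above the expression limit, 0 passed 1.5-fold either way. The most abundant were NAP1L1, SSRP1 and NASP, with 130.2, 116 and 105 FPKM in the control.

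Of 17 S phase genes, 0 passed 1.5-fold in the mean of si4 and si5, and the median log2 ratio was 0.02. With si4 alone it was -0.01, with 8 higher and 9 lower, and from si4 to si5 it was 0.03. PCNA, the sliding clamp of DNA replication, had 325 FPKM with si4, 327 with si5 and 306 with si1, against 339 in the control. MCM7 and MCM3, subunits of the replicative helicase, also differed by less than 1.5-fold. RRM2, a subunit of ribonucleotide reductase, had 54.1 FPKM with si4, 79.7 with si5 and 46.5 with si1, against 87.9 in the control, and was the only 1 of the list past 1.5-fold with si1 or with si4. With si1, 15 of the 17 were lower than in the control, with a median log2 ratio of -0.14. The part of these genes in the histone values was not tested.

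RNAs that carry no poly(A) tail were listed beside the histone genes. Of 20 such RNAs 12 had a row, and 4 met the expression limit with si4 or with si1. With si1 all 4 were higher than in the control, 3 by over 1.5-fold, and with si4 3 of 4 were higher, 2 by over 1.5-fold. RMRP, the RNA of RNase MRP, had 6.83 FPKM with si4, 5.15 with si5 and 6.36 with si1, against 2.24 in the control. RPPH1, the RNA of RNase P, had 1.63, 1.48, 1.88 and 1.66 FPKM. SCARNA13 had 1.67, 0.436, 1.83 and 0.711 FPKM, and SCARNA17 was 0.59 higher with si1 than in the control on the log2 scale. RNU6ATAC was listed at 0 with si4 and in the control and at 3.70 and 5.62 FPKM with si5 and si1. From si4 to si5, the step in which 30 of 32 histone rows were higher, all 4 of these RNAs that met the limit were lower. Their part in the histone values was not tested.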

How the data were processed

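RNA was measured in 4 libraries of HEK-293 cells, 1 for each siRNA. According to the labels and the study's methods, the authors trimmed the reads with Trimmomatic 0.30, aligned them to hg19 with TopHat2 2.1.0 and summarised them with Cufflinks 2.2.1, after base calling with CASAVA 1.8.2. They deposited 1 table of FPKM values, fragments per kilobase of transcript and per 1000000 mapped fragments. The annotation used is not given in the sources used here. The labels and the methods name different kits for stranded mRNA libraries. The table held 0 other columns of values for a sample.

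FPKM values were used as deposited. A row was tested where any library compared reached 1 FPKM and neither side was at 0, and it was called where the ratio was over 1.5-fold. Between 2 libraries, a row that reached 1 FPKM in only 1 of them could differ in the direction of that library alone. The si4 and si5 values were averaged for ZSCAN5A and set against the control. Relative depth came from the steps between values under 0.1 FPKM. Fragments came from a length curve fitted on 51 short histone rows. These were kept because they lay near the curve, and none was more than 0.183% from it. The floor was 3 fragments. Interval and fold scripts were tested on simulated data.

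The members and gene lists were chosen with earlier results of these data known. Named members are the 15 of highest mean FPKM, those past 1.5-fold against the control and the 5 known for tailed mRNA. Of each list the 3 most abundant genes and any past 1.5-fold are named. Python 3.11.15, NumPy 2.4.6, pandas 2.3.3, SciPy 1.17.1, matplotlib 3.10.9 and, for 1 alternative, limma 3.58.1 in R 4.3.3 were used. Alternatives were another expression limit, pseudocounts, scalings, fold limits, each siRNA alone, copies left out and limma.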

Additional observations from a re-analysis of the deposited data

How the results depend on the processing

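Counts of histone rows past the fold limit depended on the expression and fold limits. For the mean of si4 and si5 against the control 8 rows passed, and 24 passed without an expression limit, 0 with a limit of 5 FPKM, 0 with a pseudocount of 1 FPKM, 1 at a fold limit of 2 and 17 at the lower fold limit tried. With si4 alone 16 passed, all lower. limma on log2(FPKM + 1) called 0 of 35 at an adjusted p of 0.05, with 4 (11.4%) at an unadjusted p under that value, against 12.4% of all rows, and its spread rests on si4 and si5 alone. For si1 against the control 9 passed, and the same settings gave 17, 0, 0, 3 and 18. For si5 against si4 15 passed, and they gave 27, 4, 5, 3 and 23.

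The median log2 ratio of si4 and si5 against the control, -0.22, turned to 0.0804 with si5 alone and to 0.0021 over the 9 rows that reached 5 FPKM. The median for si5 against si4 was between 0.35 and 0.55 under every alternative run. Its lowest value, 0.348, came from a pseudocount of 1 FPKM and its highest, 0.548, from upper-quartile scaling, against 0.516. Leaving out rows of 1000 bases or more, chosen after seeing the data, changed the si1 median from -0.23 to -0.04. No paired analysis was possible because each group holds 1 library. The cause of these shifts was not tested. Depth limits the weaker genes, since 25 of 67 short rows rest on at most 3 fragments in the control.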
